A study of Mus musculus with 6 samples.

Results

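The clustered protocadherin genes were examined in the methylomes of 6 libraries of E14 mouse embryonic stem cells. All cytosines between 37080000 and 38010000 on chromosome 18 (mm9) were taken, which gave 616 cytosines listed in at least 1 library, of 750119 in the whole series. Of these, 126 lay in the alpha array (37090000 to 37347000), 101 in the beta array (37424000 to 37680000), 318 in the gamma array (37830000 to 38002000) and 71 outside the arrays. All 6 libraries listed 223 cytosines of the arrays (68 alpha, 34 beta, 121 gamma) and 19 outside them, and levels were compared over these.

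Methylation was read by reduced representation bisulfite sequencing (RRBS), in which MspI cuts DNA at CCGG and so favours CpG-rich sequence. Bisulfite leaves 5-methylcytosine and 5-hydroxymethylcytosine unconverted, so the level counts them together. The groups were a control short hairpin RNA (shRNA), an shRNA against Dnmt1, against Dnmt3a or against Dnmt3b, and paired shRNAs against Dnmt3a and Dnmt3b (the double knockdown) or against Tet1 and Tet2. Each group was 1 library, so a difference between groups is one between libraries, has no replicate error and was not tested. A bulk level does not tell fewer methylated cells from less methylation per cell. All libraries came from the same cell line, and no transcript or protein level of a target was used here. DNMT1 copies methylation after replication, DNMT3A and DNMT3B methylate DNA de novo, and TET1 and TET2 oxidise 5-methylcytosine.

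Clustered protocadherins are cadherin-related proteins of the neuronal surface, whose combinations let a neuron tell its own branches from those of other cells. In the alpha and gamma arrays each variable exon has its own promoter and is spliced to constant exons shared by the array, while beta genes are single-exon genes. A neuron switches on only a few of the alternate promoters, and promoter methylation and CTCF binding are known to take part in that choice. The last exons of the alpha and gamma arrays, called C-type, are instead used in most neurons that express clustered protocadherins. In RefSeq's gene order (GRCm38.p6) the family has 58 genes, 57 of them protein-coding: Pcdha1 to Pcdha12, then the C-type Pcdhac1 and Pcdhac2, then 22 beta genes, and 12 Pcdhga genes interleaved with 7 Pcdhgb genes, followed by the C-type Pcdhgc3 to Pcdhgc5. Gene positions on mm9 were not used here, so positions below are not assigned to single genes.

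The libraries listed between 445016 cytosines (Dnmt1) and 604227 (Tet1 and Tet2) genome-wide. The region held 459 in control, 495 for Tet1 and Tet2, 287 for Dnmt1, 454 for Dnmt3a, 449 for Dnmt3b and 454 for the double knockdown. The files give a methylation level per cytosine without read counts, so the depth behind each level is unknown. Of the 545 array cytosines, 223 were listed in 6 libraries, 122 in 5, 110 in 1 and the rest in between. The share listed in all 6 was 40.9%, against 50.4% over the autosomes.

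In control cells the array cytosines were more often partly methylated than autosomal cytosines. Of the 223 array cytosines, 84 (37.7%) read between 20 and 80%, against 14.1% of all autosomal cytosines. Another 57 (25.6%, autosomes 5.97%) read from 5 to below 20%, and 19 (8.52%, autosomes 48%) read exactly 0. Above 80% stood 20 (8.97%, autosomes 18.8%). Both extremes, the unmethylated and the fully methylated state, were thus rarer in the arrays than over the autosomes. The shares between 20 and 80% were 50% in alpha, 35.3% in beta and 31.4% in gamma. Over the 1 Mb on each side of the region, 8.25% of 800 cytosines lay between 20 and 80% and 60.8% at 0.

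**Figure D1:**
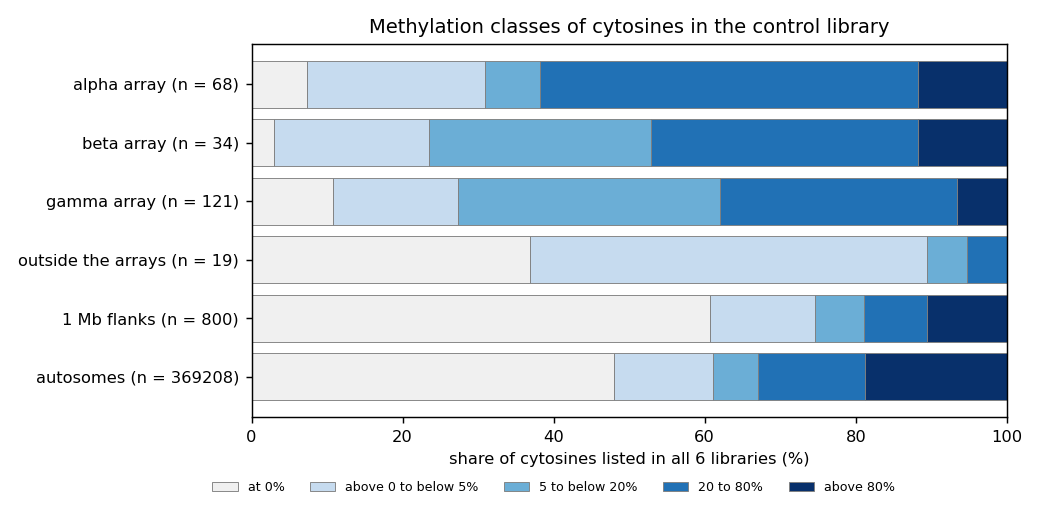
Share of cytosines (horizontal axis, percent) in 5 ranges of methylation level in the control library, for each array, the spaces outside them, the 1 Mb flanks and all autosomes (n in brackets). Bars of the 3 arrays are mostly filled by the middle ranges, with 50% of alpha cytosines at 20 to 80%, while 48% of autosomal cytosines read 0.

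The arrays differed in mean level. The alpha array read 35.8% in control, 35.3% for Tet1 and Tet2, 8.34% for Dnmt1, 28.5% for Dnmt3a, 36.4% for Dnmt3b and 30.5% for the double knockdown. The beta array read 29.5% in control, 32.7% for Tet1 and Tet2, 5.5% for Dnmt1, 19.1% for Dnmt3a, 30.4% for Dnmt3b and 21.7% for the double knockdown. The gamma array read 23.1% in control, 25.5% for Tet1 and Tet2, 4.13% for Dnmt1, 15.1% for Dnmt3a, 23.6% for Dnmt3b and 15.9% for the double knockdown. Over these shared cytosines alpha had the highest mean and gamma the lowest in all 6 libraries. The order of alpha and beta depended on which cytosines entered: over those listed in the 5 libraries other than Dnmt1, control read 37.1% in alpha and 39.97% in beta. These means hide a wide spread: the SD over cytosines in control was 32.1 points in alpha, 28.1 in beta and 25 in gamma. On the plus and the minus strand, which are read from different molecules and mostly at different CpGs, control gave 33.2% and 38% in alpha, 23.9% and 37.5% in beta, and 16.9% and 28.8% in gamma. The minus strand was the higher one in each array, and on it alpha and beta were nearly equal.

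To follow single places, listed cytosines at most 2 kb apart were joined into stretches, a grouping chosen after the data were seen. The cytosines listed in all 6 libraries fell into 34 stretches, 9 in alpha, 7 in beta and 18 in gamma, numbered below in the order of the chromosome. In control, 17 of the 34 (50%) had a mean between 20 and 80%, against 27.2% of 53024 autosomal stretches. By array the share was 33.3% in alpha, 42.9% in beta and 61.1% in gamma, the reverse of the order by cytosines. The median of the 34 stretches was 30.1%, and that of the autosomal stretches 77.8%. A further 23 stretches of the arrays had no cytosine listed in all 6 libraries and are not described.

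The alpha array alternated between partly methylated, almost fully methylated and weakly methylated places. Its first 3 stretches, the third of which starts 24.4 kb into the array, were partly methylated. Stretch 1 (37091984 to 37092254, 10 cytosines, the alpha cluster with the highest mean) read 59.1% in control, 58.2% for Tet1 and Tet2, 10.7% for Dnmt1, 48.2% for Dnmt3a, 62.9% for Dnmt3b and 54.4% for the double knockdown. Its 10 cytosines ranged from 46.7 to 77.4% in control, so no cytosine of it was near 0 or 100%. Stretch 2 (37101169 to 37101308, 4 cytosines) and stretch 3 (37114440 to 37114630, 8 cytosines) read 76.8% and 42.4% in control. Stretches 4, 5, 6 and 8, of 1 to 3 cytosines each, were almost fully methylated, at 94.9%, 93.2%, 92.3% and 91.8%. Stretches 7 and 9, the 2 richest in listed cytosines (16 and 23), were the least methylated of the array, at 14% and 13.8%. They lay 160 and 214 kb from the array's start, in its distal part. The C-type exons also follow the 12 numbered alpha exons in RefSeq's gene order, but whether these stretches lie in them was not determined.

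The beta array was sparsely read, with 34 shared cytosines over 256 kb. Stretches 1 to 5, the last of which starts 79.4 kb into the array, read 4.69%, 17.8%, 36%, 19.5% and 10.8% in control. Stretch 3 (37460910 to 37461029, 4 cytosines) was the highest of these and read 36% in control, 43.8% for Tet1 and Tet2, 6.9% for Dnmt1, 18.2% for Dnmt3a, 35% for Dnmt3b and 24.7% for the double knockdown. Stretches 6 and 7, 221 and 242 kb into the array, were more methylated. Stretch 6 (37645476 to 37645584, 6 cytosines) was the highest of the array and read 78% in control, 78.9% for Tet1 and Tet2, 16.2% for Dnmt1, 63.7% for Dnmt3a, 72.5% for Dnmt3b and 59.5% for the double knockdown. Stretch 1 (37424877 to 37425004, 7 cytosines) was the lowest and read 4.69% in control, 9.19% for Tet1 and Tet2, 0.843% for Dnmt1, 2.9% for Dnmt3a, 10.4% for Dnmt3b and 2.63% for the double knockdown. Stretch 6 was thus far above stretch 1 in all libraries, and least so in the Dnmt1 library, where all 7 stretches lay between 0 and 16.2%.

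The gamma array changed level from one stretch to the next. Its 18 stretches ranged from 0.4 to 85.2% in control, with 11 between 20 and 80% and 1 above. Stretch 4 (37854548 to 37854589, 4 cytosines) read 2.25% in control, 3.25% for Tet1 and Tet2, 0% for Dnmt1, 1.5% for Dnmt3a, 3.5% for Dnmt3b and 1.4% for the double knockdown. Stretch 7 (37875940 to 37875987, 4 cytosines, minus strand only), 21.4 kb further on, read 85.2% in control, 98% for Tet1 and Tet2, 16.1% for Dnmt1, 92.5% for Dnmt3a, 91% for Dnmt3b and 87% for the double knockdown. Stretch 9 (37885400 to 37885514, 7 cytosines), 9.46 kb beyond it, was low again and read 3.66% in control, 2.73% for Tet1 and Tet2, 1.43% for Dnmt1, 0% for Dnmt3a, 2.51% for Dnmt3b and 4.06% for the double knockdown. These neighbours span the range from nearly unmethylated to highly methylated within 30.9 kb. Of the stretches with most cytosines, stretch 15 (37926429 to 37926615, 14 cytosines) read 15.5% in control, 21.1% for Tet1 and Tet2, 3.41% for Dnmt1, 5.78% for Dnmt3a, 19.5% for Dnmt3b and 9.79% for the double knockdown, and stretch 18 (37981622 to 37981819, 12 cytosines) read 20.7% in control, 28.1% for Tet1 and Tet2, 4.22% for Dnmt1, 11.7% for Dnmt3a, 22.7% for Dnmt3b and 11.1% for the double knockdown. Both were of low to intermediate level in control, and lowest in the Dnmt1 library. Stretch 17 (37975164 to 37975206, 3 cytosines) was the least methylated, at 0.4% in control and at most 2.9% in any library.

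**Figure D2:**
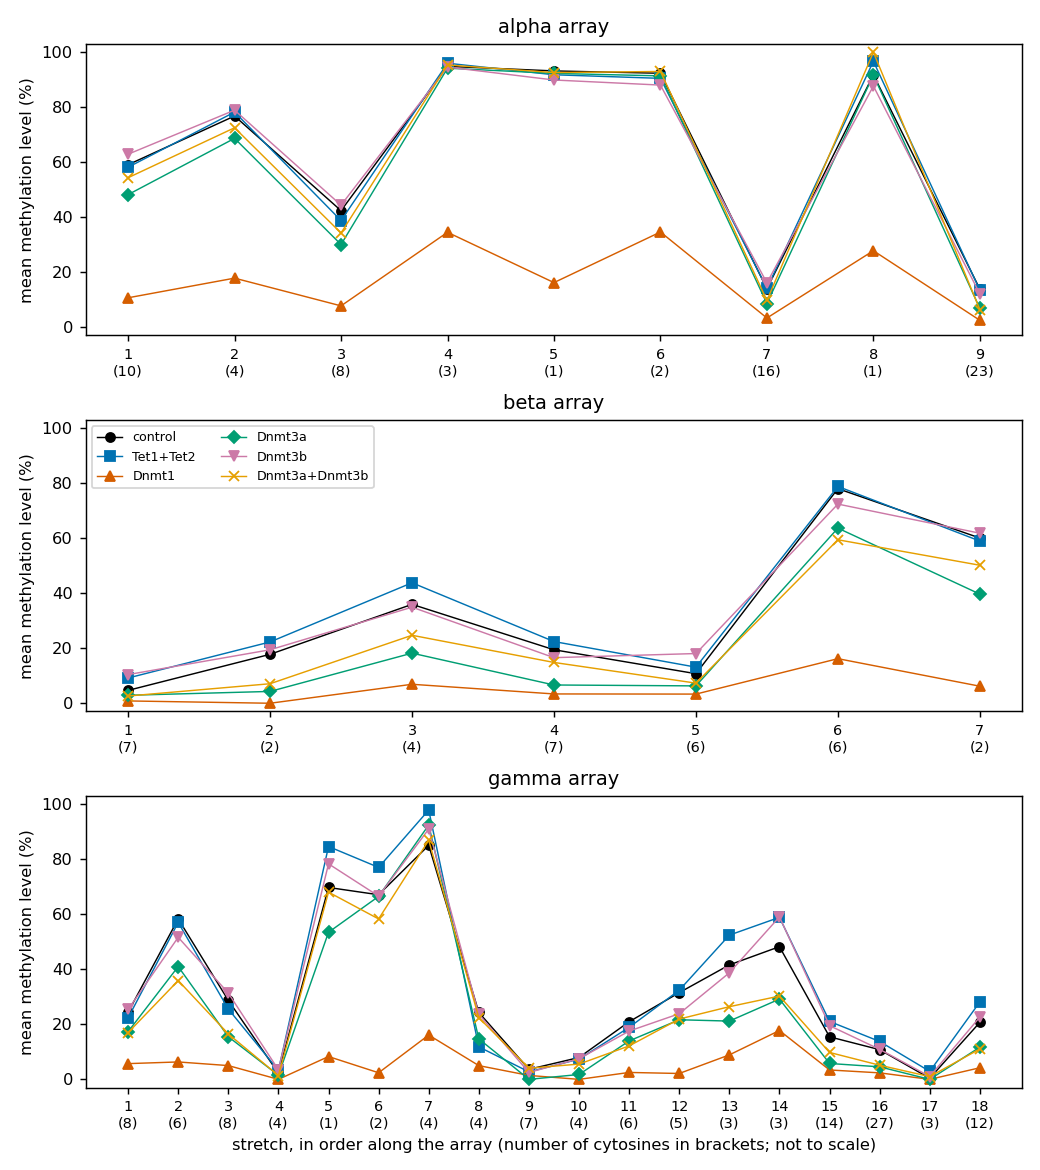
Mean methylation level (vertical axis, percent) of each stretch in the 6 libraries, with stretches in their order along the array (horizontal axis, not to scale; number of cytosines in brackets). Levels move up and down between neighbours in all libraries, and the Dnmt1 line lies lowest, in gamma stretch 17 level with Dnmt3a at 0%, at all of the 34 stretches except gamma stretch 9, reaching at most 34.6%.

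Within single stretches the level could also climb over short distances. Stretch 9 of alpha (37303615 to 37304549) opened with 9 cytosines (37303615 to 37303766) that read 0.867% in control, 1.52% for Tet1 and Tet2, 0.167% for Dnmt1, 0.511% for Dnmt3a, 0.722% for Dnmt3b and 0.333% for the double knockdown. The next 5 cytosines (37304071 to 37304115) read 4.16% in control, 2.52% for Tet1 and Tet2, 1.48% for Dnmt1, 0.48% for Dnmt3a, 2.88% for Dnmt3b and 2.22% for the double knockdown. The 6 cytosines at its far end (37304407 to 37304549) read 38.6% in control, 39.3% for Tet1 and Tet2, 6.38% for Dnmt1, 22.8% for Dnmt3a, 36.4% for Dnmt3b and 22.2% for the double knockdown. Nearly unmethylated DNA thus gave way to partly methylated DNA in 935 bp, and the far end was the highest of the 3 groups in all 6 libraries. The first and second group were in the same order in 5 libraries and nearly equal for Dnmt3a. Stretch 7 of alpha showed the same change: its first 9 cytosines (37249708 to 37249779) read 1.88% in control, 2.19% for Tet1 and Tet2, 0.222% for Dnmt1, 0.3% for Dnmt3a, 2.17% for Dnmt3b and 1.06% for the double knockdown, and its last 7 (37250006 to 37250191) read 29.5% in control, 29.5% for Tet1 and Tet2, 7.31% for Dnmt1, 19.2% for Dnmt3a, 34% for Dnmt3b and 20.9% for the double knockdown. In gamma stretch 16 (37966040 to 37967381, 27 cytosines), the first 10 cytosines (37966040 to 37966159) read 0.18% in control, 0.15% for Tet1 and Tet2, 0.08% for Dnmt1, 0% for Dnmt3a, 0.05% for Dnmt3b and 0.08% for the double knockdown, and 13 cytosines (37966961 to 37967137) further on read 12.1% in control, 16% for Tet1 and Tet2, 1.45% for Dnmt1, 5.28% for Dnmt3a, 14.2% for Dnmt3b and 4.22% for the double knockdown. In each of these stretches the unmethylated part lay at the lower coordinates. The 3 stretches were shown because they hold the most cytosines.

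**Figure D3:**
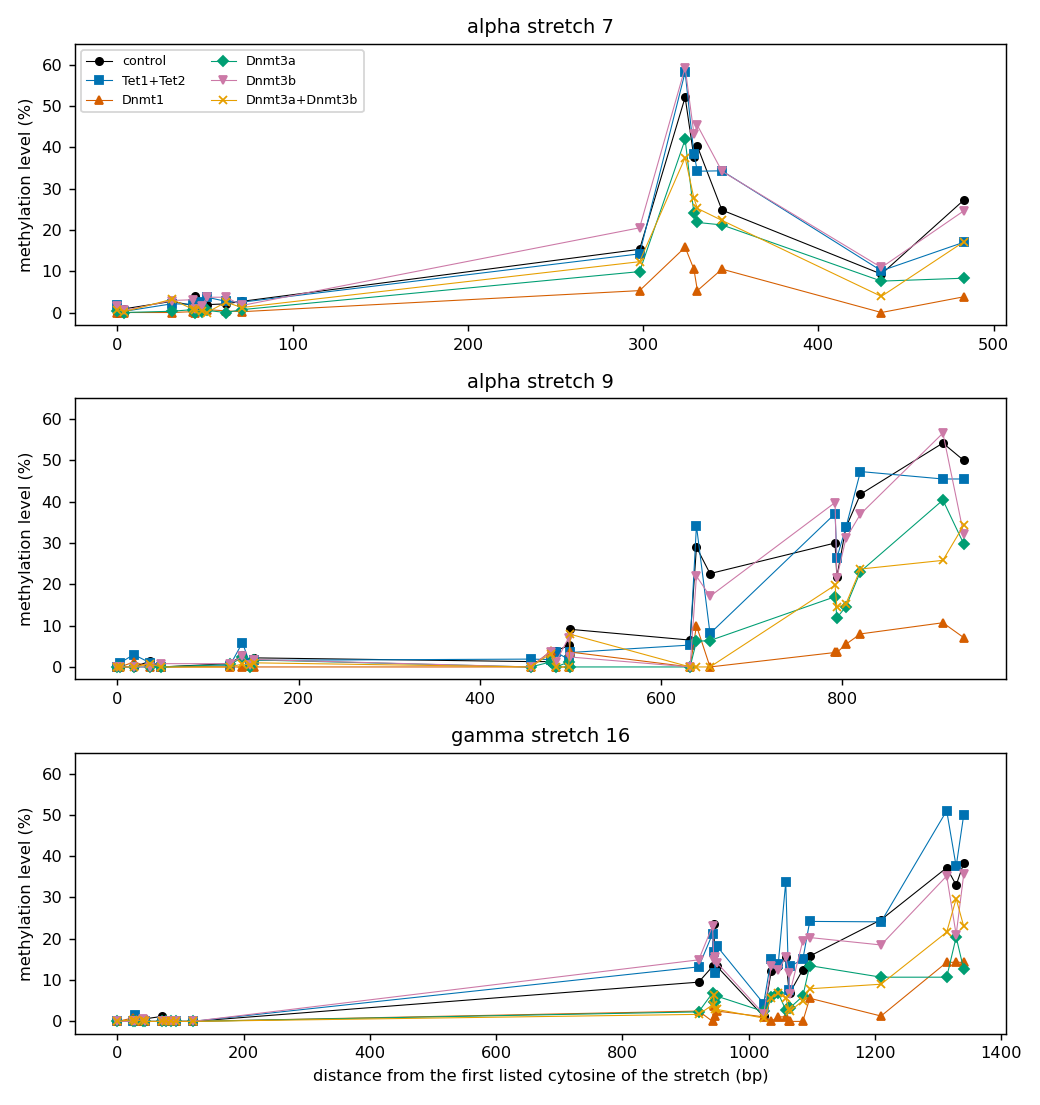
Methylation level (vertical axis, percent) of each cytosine in the 3 stretches with the most cytosines, against the distance in bp from the first cytosine of the stretch. The left part of each panel stays near 0 in all libraries, and the right part reaches 54.2% in control in alpha stretch 9.

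The spaces outside the arrays held 3 stretches of shared cytosines, all between the beta and gamma arrays, where RefSeq's gene order has Slc25a2 and Taf7. Those at 37815187 to 37815322 and 37821622 to 37821873 (5 and 12 cytosines) read 2.1% and 1.21% in control. The latter was the sole stretch of the region with more methylation for Dnmt1 (2.4%) than in control, at levels close to 0 in both. The most methylated of them, at 37703730 to 37703768 (2 cytosines, minus strand only), read 29.6% in control, 28.6% for Tet1 and Tet2, 5.25% for Dnmt1, 7.9% for Dnmt3a, 34% for Dnmt3b and 15.6% for the double knockdown. It was thus lowest in the Dnmt1 and Dnmt3a libraries.

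Knockdown of the maintenance enzyme Dnmt1 gave the lowest level in all 3 arrays. The difference from control was -27.4 ± 23.5 percentage points (SD over cytosines) in alpha, -24 ± 23.8 in beta and -19 ± 21 in gamma, which left 23.3%, 18.7% and 17.9% of the control level. Over the autosomes 21% was left. All 34 stretches were lower than in control, as were 93.4% of autosomal stretches. Higher values were seen at 0 array stretches and at 2.97% of autosomal ones. A cytosine was called where the 2 libraries, both listing it, differed by 20 points or more. This gave 98 lower cytosines of 256 in the arrays (38.3%), against 31.1% over the autosomes, and 0 higher ones (autosomes 0.0115%). Cytosines listed in all 6 libraries were also grouped by their median across these. With a median of 20 to 80%, 70 of 75 were called lower (93.3%, autosomes 96.9%). Below 20%, 9 of 136 were (6.62%, autosomes 1.22%), and above 80%, 12 of 12 (autosomes 99%). The threshold of 20 points was also applied to the mean of a stretch, or of a dense cluster of at least 5 cytosines, with at least 80% of its cytosines in that direction. Among stretches, 18 of 34 passed 20 points as lower (autosomes 71.7%) and 0 as higher (autosomes 0%). Of the 16 clusters, 6 were called lower (autosomes 22.9%) and 0 higher (autosomes 0%). The array stretches were also less methylated in control than the autosomal ones, by the medians above. For clusters the order was the opposite, with a control median of 13.8% in the arrays and 0.417% over the autosomes. The share of called cytosines was 53.9% in alpha, 40.5% in beta and 29% in gamma. The largest cluster differences were at 37091984 to 37092254 in alpha (-48.4 points), 37645476 to 37645584 in beta (-61.8) and 37907578 to 37907730 in gamma (-29.4), which were also the most methylated clusters of their arrays.

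After Dnmt1 knockdown the highest levels of the arrays were at 3 of the 4 almost fully methylated alpha stretches. Stretches 8 and 5, of 1 cytosine each, read 27.8% and 16.2%, the second of them below alpha stretch 2 (17.8%) and gamma stretch 14 (17.8%). Stretch 4 (37139984 to 37140007, 3 cytosines) read 94.9% in control, 96% for Tet1 and Tet2, 34.5% for Dnmt1, 94.2% for Dnmt3a, 94.6% for Dnmt3b and 95.4% for the double knockdown. Stretch 6 (37233713 to 37233733, 2 cytosines) read 92.3% in control, 90.5% for Tet1 and Tet2, 34.6% for Dnmt1, 91.4% for Dnmt3a, 88% for Dnmt3b and 93% for the double knockdown. In both, only the Dnmt1 library was far from the others. These were the 2 highest stretches of the arrays in that library. Cytosines with a median above 80% across the 6 libraries had a mean level in the Dnmt1 library of 30.7% in alpha (n = 8), 5.6% in beta (n = 1) and 18.3% in gamma (n = 3). The mean over 59269 such autosomal cytosines was 21.4%, between the alpha value and the other two. The Dnmt1 library missed more cytosines than the others: of 317 array cytosines listed in the other 5 libraries, 94 (29.7%, autosomes 18.6%) were not listed in it. Among those with a median above 80% it missed 16 of 33 (48.5%, autosomes 33.7%). These were 9 of 11 in beta, 5 of 13 in alpha and 2 of 9 in gamma.

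The Dnmt3a knockdown, which targets a de novo enzyme, was the next lowest in each array over the shared cytosines. Over each library's own cytosines the double knockdown was lower, at 29% against 30.3% in alpha, 27.3% against 30.3% in beta and 14.1% against 15.9% in gamma. Over the shared cytosines Dnmt3a differed from control by -7.24 ± 6.93 points in alpha, -10.4 ± 9.15 in beta and -8.01 ± 9.09 in gamma, against -4.02 points over the autosomes and -2.78 over the flanks. In relative terms alpha kept 79.8%, beta 64.7% and gamma 65.3% of the control level, and the autosomes 84.3%. The difference was negative on both strands of every array: -5.68 and -8.55 points on plus and minus in alpha, -8.56 and -13 in beta, -6.52 and -9.39 in gamma. Lower values were seen at 33 of 34 stretches, and at 85.2% of autosomal stretches. The exception was gamma stretch 7, at 92.5% against 85.2% in control (autosomal stretches higher: 11.1%). At that stretch Tet1 and Tet2 (98%), Dnmt3b (91%) and the double knockdown (87%) also read above control. Over each library's own cytosines the gamma difference was -4.67 and the alpha difference -4.81 points, with the same sign.

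The Dnmt3a difference was largest at cytosines of intermediate level. Cytosines were classed by their median over the 6 libraries as low (below 20%), intermediate (20 to 80%) or high (above 80%). Intermediate cytosines differed by -12.1 ± 5.53 points in alpha (n = 29), -18.5 ± 6.21 in beta (n = 12) and -15.9 ± 12 in gamma (n = 34), against -15.3 ± 11.2 over the autosomes. The array values lay on either side of the autosomal one. These SDs are the spread of single cytosines, not errors of the means. Array cytosines were intermediate more often (33.6%) than autosomal ones (15.6%). Low cytosines read 8.88% in control and 3.77% after Dnmt3a knockdown in the arrays, or 42.4% of the control level. Autosomal low cytosines kept 40.5%, from a control level of 1.76%. The low cytosines of the arrays thus started higher and kept a share close to the autosomal one. High cytosines of alpha read 93.8% in control and 92% after Dnmt3a knockdown (n = 8), a difference of -1.75 points against -5.71 over the autosomes. The few high cytosines of the other arrays differed by -1.7 points in beta (n = 1) and 2.9 in gamma (n = 3). The median that sets a class includes the knockdown libraries.

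After Dnmt3a knockdown 38 of 371 array cytosines (10.2%) were called lower, against 7.99% over the autosomes, and 6 higher (1.62%, autosomes 0.293%). Over cytosines listed in all 6 libraries, 1 of 75 intermediate ones was called higher (1.33%, autosomes 0.33%). So were 0 of 136 low ones (autosomes 0.00713%) and 0 of 12 high ones (autosomes 0.165%). The 38 lower ones were 4 of 92 in alpha, 9 of 68 in beta and 25 of 211 in gamma. Their share over the 3 arrays is close to the autosomal one, but the classes differed. Over cytosines listed in all 6 libraries, 19 of 75 intermediate ones were called lower (25.3%, autosomes 31.6%). By array these were 2 of 29 in alpha, 5 of 12 in beta and 12 of 34 in gamma. Of the low ones, 3 of 136 were called lower (2.21%, autosomes 0.543%), and of the high ones 0 of 12 (autosomes 3.57%). The stretches past 20 points were beta stretch 7 (37665543 to 37665552, 2 cytosines), which read 60.1% in control, 59% for Tet1 and Tet2, 6.2% for Dnmt1, 39.7% for Dnmt3a, 61.9% for Dnmt3b and 50.2% for the double knockdown, and gamma stretch 13 (37912661 to 37912828, 3 cytosines), which read 41.6% in control, 52.5% for Tet1 and Tet2, 8.9% for Dnmt1, 21.2% for Dnmt3a, 38.8% for Dnmt3b and 26.4% for the double knockdown. Both had few cytosines, all on the minus strand. Of the stretches, 2 of 34 passed 20 points as lower (autosomes 8%) and 0 as higher (autosomes 0.1%). Of the 16 clusters, 0 were called lower (autosomes 3.36%) and 0 higher (autosomes 0%). The 2 stretches are 5.88% of the 34. The largest cluster differences were at 37304407 to 37304549 in alpha (-15.8 points), 37481849 to 37481892 in beta (-16 points) and 37907578 to 37907730 in gamma (-9.86 points). The beta cluster (5 cytosines) read 22.8% in control, 25% for Tet1 and Tet2, 1.42% for Dnmt1, 6.76% for Dnmt3a, 18.2% for Dnmt3b and 13.8% for the double knockdown.

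Over the shared cytosines the array means of the Dnmt3b knockdown library were within 1 point of control. DNMT3B is known as the enzyme that methylates clustered protocadherin promoters in the early mouse embryo. The differences were 0.59 ± 4.99 points in alpha, 0.976 ± 9.68 in beta and 0.522 ± 6.82 in gamma, and 0.446 over the autosomes. The beta mean joins opposite signs: 3.75 points at low cytosines (n = 21) and -4.35 at intermediate ones (n = 12). In alpha low and intermediate cytosines differed by -0.826 and 2.87 points, and in gamma by 0.333 and 0.374. Over each library's own cytosines the alpha difference was 5.03 points, and over cytosines listed in both libraries 1.82 in alpha and 1.86 in beta. The shared-cytosine differences changed sign between the strands in beta (2.82 and -1.66 points) and gamma (-0.762 and 1.7). Of 34 stretches, 16 were lower and 18 higher than in control (autosomes 43.8% and 52.7%). Of 371 cytosines, 7 were called lower (1.89%, autosomes 1.22%) and 13 higher (3.5%, autosomes 1.74%). Among the stretches, 0 of 34 passed 20 points as lower (autosomes 0.396%) and 0 as higher (autosomes 0.734%). Of the 16 clusters, 0 were called lower (autosomes 0.0222%) and 0 higher (autosomes 0.0799%). The largest cluster difference in gamma was at 37907578 to 37907730 (5 cytosines, minus strand only), which read 31.5% in control, 32.4% for Tet1 and Tet2, 2.14% for Dnmt1, 21.7% for Dnmt3a, 23.9% for Dnmt3b and 21.9% for the double knockdown. In alpha it was at 37250006 to 37250191 and in beta at 37424877 to 37425004, both higher than control, by 4.51 and 5.74 points. How far Dnmt3b was depleted was not measured here, so a weak knockdown and a small effect cannot be told apart.

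Knockdown of both de novo enzymes together gave levels between control and the Dnmt3a knockdown over the shared cytosines. The differences from control were -5.26 ± 7.62 points in alpha, -7.79 ± 9 in beta and -7.18 ± 9.16 in gamma, and -2.94 over the autosomes. Lower values were seen at 28 of 34 stretches (autosomes 80.4%) and higher ones at 6 (16.2%). Of 373 cytosines, 31 (8.31%) were called lower, against 4.9% over the autosomes, and 2 higher (0.536%, autosomes 0.421%). Among the shared cytosines, 13 of 75 intermediate ones were called lower (17.3%, autosomes 18.6%). So were 2 of 136 low ones (1.47%, autosomes 0.446%) and 0 of 12 high ones (autosomes 1.54%). Among stretches, 1 of 34 passed 20 points as lower (autosomes 3.49%) and 0 as higher (autosomes 0.143%). Of the 16 clusters, 0 were called lower (autosomes 1.29%) and 0 higher (autosomes 0.00444%). The called stretch was gamma stretch 2 (37845607 to 37845899, 6 cytosines), which read 58.4% in control, 57.1% for Tet1 and Tet2, 6.33% for Dnmt1, 41% for Dnmt3a, 51.7% for Dnmt3b and 35.9% for the double knockdown. Compared directly, the double knockdown lay above Dnmt3a alone by 1.98 ± 4.53 points in alpha, 2.61 ± 9.17 in beta and 0.838 ± 6.41 in gamma (autosomes 1.08). It was higher at 24 and lower at 10 of 34 stretches, against 63.4% and 32.3% of autosomal stretches. The SDs are the spread of single cytosines, not errors of the means. The sign of these differences turned over each library's own cytosines. There the difference from control in alpha was -6.1 points for the double knockdown and -4.81 for Dnmt3a. Against Dnmt3b alone the double knockdown differed by -5.85 ± 8.69 points in alpha, -8.77 ± 10.2 in beta and -7.7 ± 9.23 in gamma (autosomes -3.39), with 29 of 34 stretches lower and 5 higher (autosomes 80.4% and 16.2%). Dnmt3a differed from Dnmt3b by -7.83 ± 8.3, -11.4 ± 8.18 and -8.54 ± 10.1 points in the same order, and was lower at all 7 beta, 17 of 18 gamma and 6 of 9 alpha stretches (autosomes 84.5% lower and 11.9% higher). The control library takes no part in these direct differences.

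Knockdown of Tet1 and Tet2 went with small and uneven differences. The array means differed from control by -0.518 ± 4.85 points in alpha, 3.23 ± 6.6 in beta and 2.43 ± 7.51 in gamma, and 1.4 over the autosomes. Over cytosines listed in both libraries the differences were 1.01 in alpha, where the sign turned, 0.825 in beta and 1.63 in gamma. Over each library's own cytosines they were 0.213, 1.89 and 0.276. Over the shared cytosines the alpha difference changed sign between the strands (-1.42 and 0.241 points), while beta (3.62 and 2.68) and gamma (0.883 and 3.85) were positive on both. Of the stretches, 4 of 9 in alpha, 6 of 7 in beta and 11 of 18 in gamma were higher than in control, against 66.8% over the autosomes, where 30.1% were lower. Of 359 cytosines, 13 (3.62%) were called higher (autosomes 2.58%) and 5 (1.39%) lower (autosomes 0.889%). Among stretches, 0 of 34 passed 20 points as lower (autosomes 0.328%) and 0 as higher (autosomes 1.47%). Of the 16 clusters, 0 were called lower (autosomes 0.0178%) and 0 higher (autosomes 0.222%). The gamma stretches with the largest gains were stretch 5 (1 cytosine, at 37862338, 84.7% against 69.8%) and stretch 7 (98% against 85.2%), and the largest loss was at stretch 8 (37881599 to 37881638, 4 cytosines), with 11.8% against 24.3%. Stretches 7 and 8 lie 5.66 kb apart and went opposite ways. Intermediate cytosines differed by -0.266 points in alpha, 2.47 in beta and 4.63 in gamma, all below the autosomal 5.23 ± 10.6 points (SD over cytosines).

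**Figure D4:**
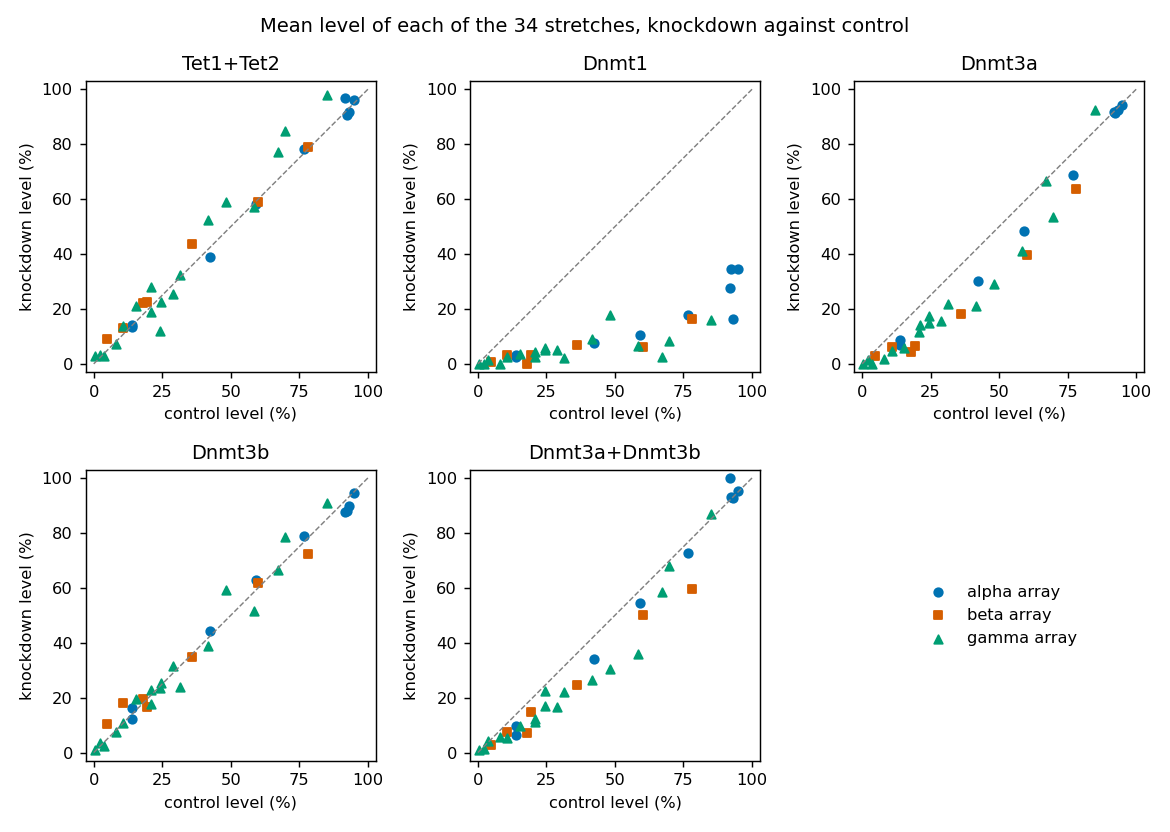
Mean level of each of the 34 stretches in a knockdown (vertical axis, percent) against control (horizontal axis, percent), one panel per knockdown, with the line of equal levels dashed. All points lie below the line for Dnmt1 and 33 of 34 for Dnmt3a, while the points for Dnmt3b fall on either side of it.

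**Figure D5:**
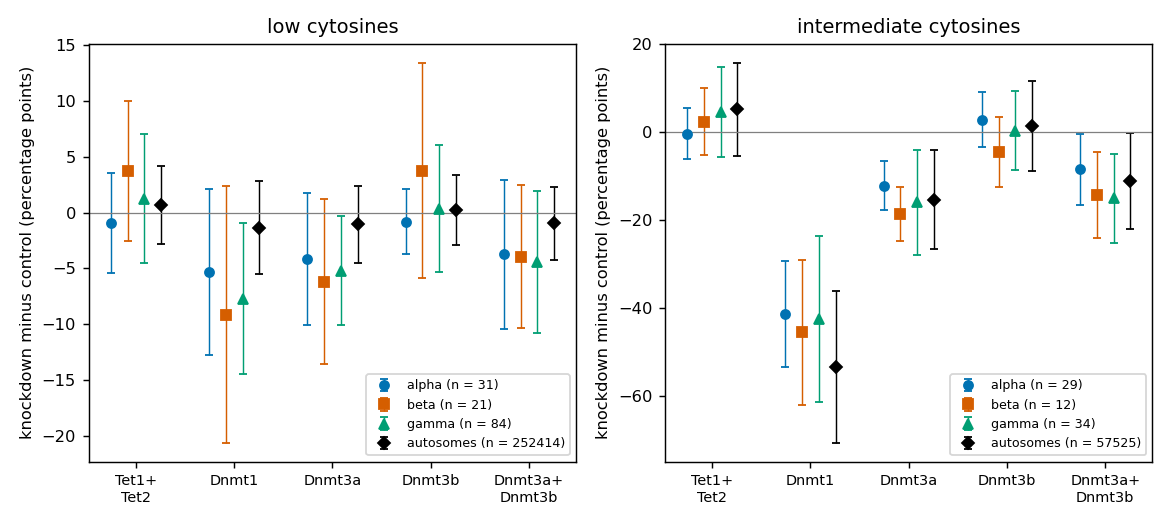
Mean difference from control (vertical axis, percentage points) for each knockdown at low (left) and intermediate (right) cytosines of each array and of all autosomes; bars are the SD over cytosines. At intermediate cytosines the Dnmt3a means of the arrays lie on either side of the autosomal -15.3 points.

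Cytosines inside dense groups differed in level from the other shared ones. In the arrays 58.3% of shared cytosines lay in clusters of at least 5 with gaps of at most 100 bp, against 69.7% over the autosomes. The rest were not all isolated: alpha stretch 3 held 8 of them within 191 bp. Clustered array cytosines averaged 19.5% in control and the others 39.7%. Over the autosomes these values were 10.7% and 60.03%, a wider gap. The direction held in alpha (23.4% and 61.8%) and gamma (12.9% and 35.4%) and was the opposite in beta (34.2% and 24.2%), where 6 of the 18 clustered cytosines belong to the highly methylated stretch 6.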

How the data were processed

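Per the labels, MspI fragments of E14 genomic DNA entered TruSeq library preparation, were converted with bisulfite (EpiTect kit) and were read on an Illumina HiScanSQ. CASAVA 1.8, Bismark 0.10.1 and the build mm9 are listed in the submitters' processing notes, with no role stated. The deposited files hold methylation fractions per CpG cytosine and strand, rounded by the authors to 3 decimals. A coverage minimum, trimming and duplicate removal were not given in the sources used here. The title of the Dnmt1 sample names Dnmt1a; its treatment label was followed.

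Fractions were turned into percent, cytosines without a level were left out, and libraries were joined by position and strand (Python 3.11.15, pandas 2.3.3, NumPy 2.4.6, matplotlib 3.10.9). Positions are 1-based. Differences are knockdown minus control. Single cytosines were called at 20 points; clusters and stretches at a mean of 20 points with 80% of cytosines in that direction. The cluster rule was tested on simulated data. Members and settings were chosen with earlier results of these data known. Clusters named in the text were, per array, the 3 with most cytosines, the highest, the lowest and those with the largest difference per knockdown. Stretches were named after their values were seen. Matching clusters to promoter sequences was planned; the promoter table used here held none for these genes.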

Additional observations from a re-analysis of the deposited data

How the results depend on the processing

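Levels rest on an unknown read depth, on 1 library per group and on 223 shared cytosines, from which some highly methylated ones are missing. Of 365 values recomputed under alternatives, 242 kept within their limit and 123 moved, a mean by more than the SD of its 2 strand values or a count by more than 1.5 times. Single-strand values are not in this tally, since the limit is made from them. The strands mostly cover different CpGs, so the limit does not measure noise. For array levels it ran from 0.391 points (alpha, Dnmt1) to 10.5 (gamma, Tet1 and Tet2). The beta control level thus counted as kept, although it was 38.6% over its own cytosines and 29.5% over the shared ones. The Dnmt1, Dnmt3a and double-knockdown differences were negative in every array under every alternative, while those of Dnmt3b in each array and of Tet1 and Tet2 in alpha changed sign under some. No paired analysis was possible because each group has 1 library, so leaving out a replicate was not possible either. Counting each stretch once and using 5 libraries were chosen after seeing the data. The lists below give only the values that moved, and leave out those that kept within their limit. As medians, levels (percent) were in alpha 29.5 for control, 5.3 for Dnmt1, 16.4 for Dnmt3a, 31.6 for Dnmt3b, 21.1 for the double knockdown, and in beta 19.1 for control, 23.7 for Tet1 and Tet2, 2.75 for Dnmt1, 7.45 for Dnmt3a, 21.5 for Dnmt3b, and in gamma 13.6 for control, 1.4 for Dnmt1, 6 for Dnmt3a, 6.1 for the double knockdown. As medians, differences (points) were in alpha -4.75 for Dnmt3a, -2.5 for the double knockdown, and in gamma -5.3 for the double knockdown. With each cluster counted once, levels (percent) were in alpha 22.3 for control, 22.2 for Tet1 and Tet2, 4.37 for Dnmt1, 15.3 for Dnmt3a, 23.2 for Dnmt3b, 16.8 for the double knockdown, and in gamma 13.2 for control, 1.9 for Dnmt1, 6.94 for Dnmt3a, 13.1 for Dnmt3b, 7.83 for the double knockdown. With each cluster counted once, differences (points) were in alpha -18 for Dnmt1, and in beta 2.52 for Tet1 and Tet2, -9.85 for the double knockdown, and in gamma -11.3 for Dnmt1, -5.37 for the double knockdown. With bounds 5 kb further in, levels (percent) were in alpha 31.8 for control, 7.94 for Dnmt1, 25.1 for Dnmt3a, 31.8 for Dnmt3b, 26.4 for the double knockdown. With bounds 5 kb further in, differences (points) were in alpha -23.8 for Dnmt1, and in beta -9.28 for the double knockdown. With each stretch counted once, levels (percent) were in alpha 64.3 for control, 64.2 for Tet1 and Tet2, 17.2 for Dnmt1, 59.1 for Dnmt3a, 63.9 for Dnmt3b, 62 for the double knockdown, and in gamma 22.9 for Dnmt3a, 24.1 for the double knockdown. With each stretch counted once, differences (points) were in alpha -47 for Dnmt1, -5.15 for Dnmt3a, -0.402 for Dnmt3b, -2.23 for the double knockdown, and in beta -8.65 for the double knockdown, and in gamma -26.1 for Dnmt1. Over each library's own cytosines, levels (percent) were in alpha 7.56 for Dnmt1, 30.3 for Dnmt3a, 29 for the double knockdown, and in beta 30.3 for Dnmt3a, 38.9 for Dnmt3b. Over each library's own cytosines, differences (points) were in alpha -4.81 for Dnmt3a, 5.03 for Dnmt3b, and in beta 1.89 for Tet1 and Tet2, -33.1 for Dnmt1, -11.3 for the double knockdown, and in gamma 0.276 for Tet1 and Tet2, -4.67 for Dnmt3a, -6.42 for the double knockdown. Over cytosines listed in the 5 libraries other than Dnmt1, levels (percent) were in alpha 30.3 for Dnmt3a, and in beta 39.97 for control, 42.6 for Tet1 and Tet2, 32.2 for Dnmt3a, 41 for Dnmt3b, 32.4 for the double knockdown. Over cytosines listed in the 5 libraries other than Dnmt1, differences (points) were in alpha 0.934 for Tet1 and Tet2. Over cytosines listed in both libraries, differences (points) were in alpha 1.01 for Tet1 and Tet2, 1.82 for Dnmt3b, and in beta 0.825 for Tet1 and Tet2, -6.57 for the double knockdown. At cytosines with a median of at least 20%, differences (points) were in alpha -46 for Dnmt1, -9.86 for Dnmt3a, 1.78 for Dnmt3b, and in beta 2.44 for Tet1 and Tet2, -47.9 for Dnmt1, -17.2 for Dnmt3a, -3.51 for Dnmt3b, -14 for the double knockdown, and in gamma 5.08 for Tet1 and Tet2, -44.6 for Dnmt1, -14.4 for Dnmt3a, -13.4 for the double knockdown. The counts that follow are for the 3 arrays and are given without autosomal shares. They show how a setting changes the array counts, not how the arrays compare with the autosomes. At 10 points, cytosines past the threshold (20-point count in brackets) were 25 lower for Tet1 and Tet2 (5), 44 higher for Tet1 and Tet2 (13), 1 higher for Dnmt1 (0), 114 lower for Dnmt3a (38), 35 lower for Dnmt3b (7), 43 higher for Dnmt3b (13), 108 lower for the double knockdown (31), 7 higher for the double knockdown (2). At 10 points, clusters past the threshold (20-point count in brackets) were 5 lower for Dnmt3a (0), 2 lower for the double knockdown (0). At 30 points, cytosines past the threshold (20-point count in brackets) were 2 lower for Tet1 and Tet2 (5), 1 higher for Tet1 and Tet2 (13), 11 lower for Dnmt3a (38), 0 higher for Dnmt3a (6), 1 lower for Dnmt3b (7), 4 higher for Dnmt3b (13), 11 lower for the double knockdown (31), 0 higher for the double knockdown (2). At 30 points, clusters past the threshold (20-point count in brackets) were 3 lower for Dnmt1 (6). Over cytosines listed in all 6 libraries, cytosines past the threshold (20-point count in brackets) were 0 lower for Tet1 and Tet2 (5), 5 higher for Tet1 and Tet2 (13), 22 lower for Dnmt3a (38), 1 higher for Dnmt3a (6), 1 lower for Dnmt3b (7), 3 higher for Dnmt3b (13), 15 lower for the double knockdown (31), 1 higher for the double knockdown (2). With at least 3 cytosines per cluster, clusters past the threshold (20-point count in brackets) were 17 lower for Dnmt1 (6), 3 lower for Dnmt3a (0), 2 lower for the double knockdown (0). With at least 10 cytosines per cluster, clusters past the threshold (20-point count in brackets) were 1 lower for Dnmt1 (6). With strands merged, cytosines past the threshold (20-point count in brackets) were 1 higher for the double knockdown (2). With gaps of 300 bp, clusters past the threshold (20-point count in brackets) were 1 lower for the double knockdown (0).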
